A study of Mus musculus with 2 samples.

Results

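Molecular chaperones and stress proteins were examined as a set of 42 genes, out of 55536 annotated genes with values in adrenal gland. The members were named by symbol, with earlier results of these data known. They comprise 9 stress-inducible cytosolic chaperones and cofactors, 5 constitutive cytosolic chaperones, 3 small heat shock proteins typical of muscle, 12 chaperones of the endoplasmic reticulum (ER), 7 mitochondrial chaperones and proteases, and 6 transcription factors of the stress responses. The samples formed 1 group: adrenal glands of male mice of strain B6CASTF1/J, a first-generation hybrid cross, aged 25 days, with no treatment named in the labels. Total RNA (300 ng) had been depleted of ribosomal RNA, spiked with ERCC controls and made into 2 libraries, called replicate 1 and replicate 2 as in the labels. The labels conflict on their source: in the biosample descriptions replicate 1 is animal 3 and replicate 2 is animal 4, whereas both library descriptions say animal 3, and the donor label is shared. Whether the spread between the replicates is between animals therefore rests on the biosample labels alone.

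Chaperones of the HSP70 and HSP90 families bind unfolded stretches of other proteins and release them in cycles of ATP hydrolysis, helped by J-domain cofactors (the Dnaj genes) and nucleotide exchange factors. In the cytosol, the factor HSF1 binds heat shock elements in promoters and raises the inducible members when proteins misfold. In the ER, the sensors IRE1, PERK and ATF6 report unfolded proteins, and the factors XBP1, ATF4 and ATF6 raise ER chaperones, partly through ER stress elements. Mitochondria hold their own HSP70, the HSP60/HSP10 chaperonin cage and the proteases LONP1 and CLPP. Cells of the adrenal cortex make steroids from cholesterol in mitochondria and smooth ER, and chromaffin cells of the medulla fold secreted proteins in the rough ER.

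Because the members are grouped by their known stress programme, promoter sequences from the RefSeq table (GRCm38.p6, which is mm10; 250 bases before to 50 bases after each start site) were searched on both strands. Of the 42 members, 34 had a promoter in the table. An ER stress element was read as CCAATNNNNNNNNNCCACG, and the upstream windows that hold it are shown with the match in capitals, 5′ to 3′ on the gene's strand. A match whose capitals begin with CGTGG lies on the opposite strand.
Hspa5, chr2:34772020-34772048, plus strand: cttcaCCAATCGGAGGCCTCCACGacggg
Calr, chr8:84847063-84847105, minus strand: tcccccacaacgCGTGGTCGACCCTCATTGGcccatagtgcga
Canx, chr11:50325788-50325830, minus strand: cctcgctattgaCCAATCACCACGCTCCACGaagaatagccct
Pdia6, chr12:17266479-17266521, plus strand: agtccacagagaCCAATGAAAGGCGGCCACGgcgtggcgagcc
Dnajc3, chr14:118937815-118937857, plus strand: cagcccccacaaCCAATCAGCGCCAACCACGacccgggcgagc
Hsp90b1, chr10:86705521-86705668, minus strand: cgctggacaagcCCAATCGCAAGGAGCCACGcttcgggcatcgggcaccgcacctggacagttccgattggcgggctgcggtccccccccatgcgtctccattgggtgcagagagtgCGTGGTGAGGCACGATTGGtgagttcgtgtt
The element was present in 6 of the 11 ER chaperone genes with a promoter, and Hsp90b1 carried 2 copies, one on each strand. It was present in 0.119% of all 32851 promoters in the table, that is in 39 of them, and in 0 promoters of the other member lists. A related element, ATTGGNCCACG, occurred in 0.0365% of all promoters and among members in Dnajb11, at 8 to 18 bases after its start.

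Heat shock elements are runs of inverted GAA units. The 2-unit forms GAANNTTC and TTCNNGAA, which overlap within longer runs, were present in 15.1% of all promoters and in 17.0% of the 27025 genes that have one. They occurred in 7 of the 8 inducible cytosolic genes with a promoter (Hspa1a, Hspa1b, Hsph1, Dnaja1, Dnajb4, Bag3 and Hspb1, with Dnajb1 the exception). They also occurred in both small heat shock genes in the table (Hspb6 and Hspb8), in 3 of 6 mitochondrial genes, and in 0 of 3 constitutive, 0 of 11 ER and 0 of 4 transcription factor genes. The 3-unit form GAANNTTCNNGAA was rarer, at 0.603% of all promoters, and among members was found in Hsph1, Hspd1 and Hspe1. The windows below show the pair of inducible HSP70 genes, the gene Hspb1 with 2 separate matches, and the element between the chaperonin genes Hspd1 and Hspe1, with the matched units in capitals.
Hspa1a, chr17:34972241-34972272, minus strand: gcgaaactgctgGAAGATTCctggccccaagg
Hspa1b, chr17:34959323-34959354, minus strand: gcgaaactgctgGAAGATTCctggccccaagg
Hspb1, chr5:135887790-135887841, plus strand: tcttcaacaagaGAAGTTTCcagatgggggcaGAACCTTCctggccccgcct
Hspe1, chr1:55088054-55088081, plus strand: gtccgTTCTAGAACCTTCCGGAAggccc
The windows of Hspa1a and Hspa1b are the same letter for letter, and 247 of the 250 bases upstream of their start sites (98.8%) were identical. Hspd1 and Hspe1 are transcribed away from each other, and the same element lies at positions -89 to -72 from the start of Hspe1 and at -144 to -127 from a start of Hspd1. In the GENCODE annotation the window of Hspa5 falls in the exon of a transcript that starts further upstream, and that of Hspe1 in an exon of a longer Hspd1 transcript. A match is a string of letters and does not show that a factor binds.

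**Figure D1:**
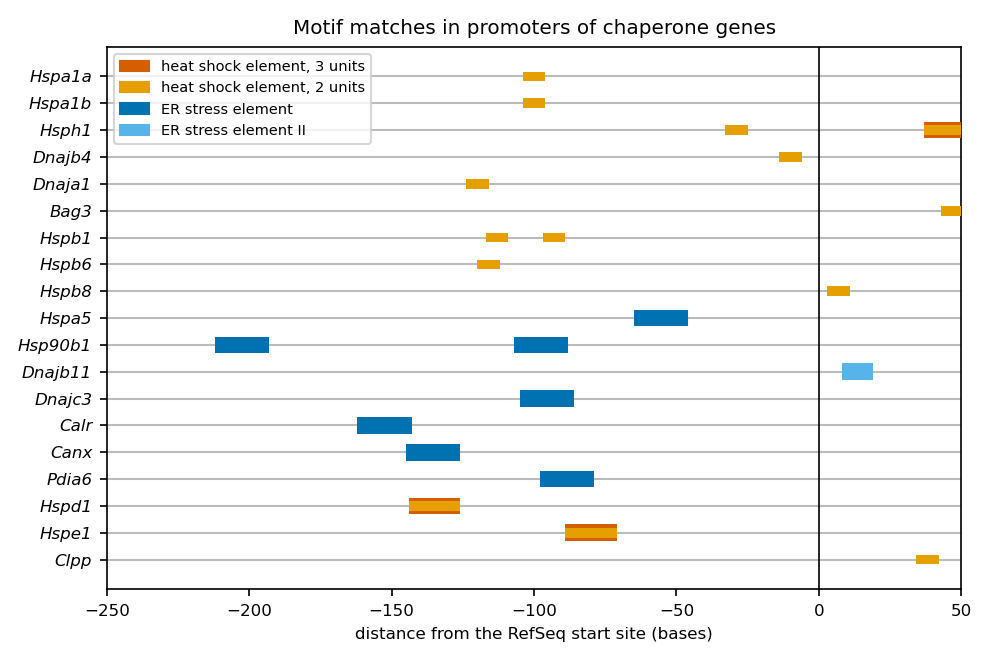
Positions of motif matches in the promoters of member genes that hold any, in bases from the RefSeq start site (the more upstream start for Hsph1, which has 2 promoters with matches), with bar colour giving the motif. ER stress elements sit between 212 and 47 bases before the start in 6 ER genes, and heat shock elements lie in inducible, small heat shock and mitochondrial genes.

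All 42 members reached 1 TPM or more in each library and so count as detected. TPM is a share of transcripts, corrected for transcript length, and was taken from the first of the authors' 2 quantifications. The highest members by mean were 2 of the 5 constitutive cytosolic chaperones. Hspa8, the constitutive HSP70 that folds new proteins and uncoats clathrin vesicles, was listed at 903 and 497 TPM in replicates 1 and 2 (values of each pair below are in that order), a mean of 699.8 ± 287 (SD, n = 2). Hsp90ab1, the constitutive HSP90, followed at 674 and 504 TPM, a mean of 589.0 ± 121 (SD, n = 2). Their order is not resolved: Hsp90ab1 was slightly the higher in replicate 2, and the second quantification put its mean above that of Hspa8, at 1022 against 988.0 TPM. By mean TPM of the first quantification these 2 genes stood at ranks 34 and 41 of 22015 nuclear protein-coding genes and held 15.3% and 12.9% of the summed TPM of the set.

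Next came Hspd1 (HSP60, the mitochondrial chaperonin), at 471 and 268 TPM. The ranks from the fourth to the eighth were P4hb, Hsp90b1, Calr, Hspa5 and Hspa9, with means from 240.3 down to 219 TPM. The ranges spanned by their 2 libraries overlapped, so their order is not resolved. The first 6 genes together held 51.8% of the set's TPM. At the other end stood Dnajb1 (8.94 TPM), Hsf2 (6.61 TPM), Hspa1a (6.27 TPM) and Hspa2 (6.17 TPM), an HSP70 best known from testis.

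**Figure D2:**
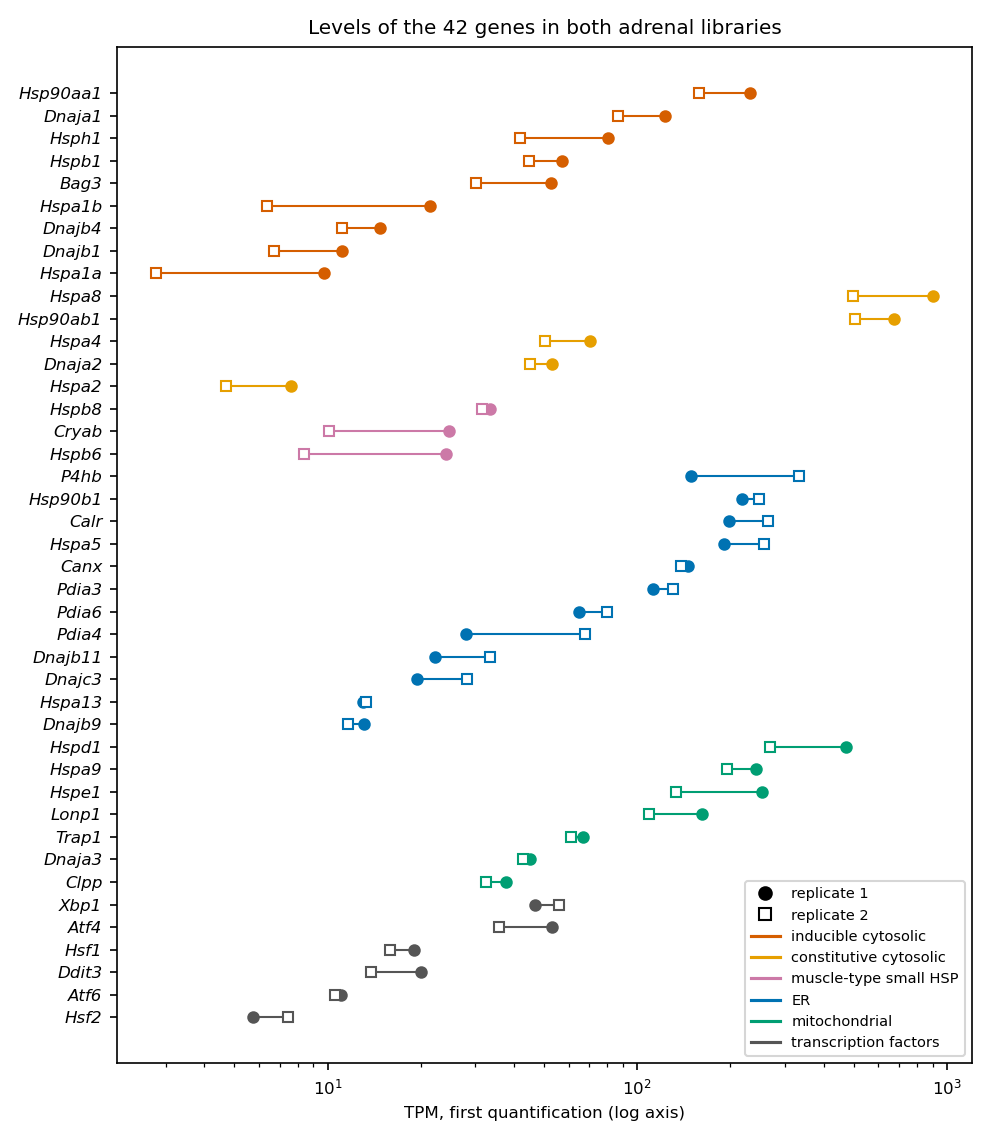
TPM of each of the 42 genes in replicate 1 (filled circles) and replicate 2 (open squares) on a log axis, grouped by list and ordered by mean within a list. Hspa8 and Hsp90ab1 lead at about 500 TPM or more in both libraries, and replicate 2 lies below replicate 1 in every inducible cytosolic gene and above it in 10 of 12 ER genes.

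The inducible HSP70 pair was low beside its constitutive relative. Hspa1a (chr17:34969190-34972156, minus strand, a single-exon gene) was listed at 9.75 and 2.79 TPM. Its neighbour Hspa1b (chr17:34956436-34959238, minus strand, also a single exon) was listed at 21.4 and 6.36 TPM. Both genes stood higher in replicate 1. The split of reads between them carried a small uncertainty. The authors' posterior SD of the count was 3.01% and 5.62% of the count for Hspa1a and 1.45% and 2.61% for Hspa1b. For Hspa8 it was 0.32% and 0.41%, of far higher counts. In counts, the SD was 28.8 and 15.2 for Hspa1a and 164 and 118 for Hspa8.

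Summed, the pair reached 31.2 and 9.15 TPM, and Hspa8 exceeded the sum 28.9-fold in replicate 1 and 54.3-fold in replicate 2, a log2 ratio of 5.31 ± 0.64 (SD, n = 2). The HSP90 pair was closer. Hsp90aa1, the inducible form, was listed at 232 and 158 TPM, and Hsp90ab1 exceeded it by a log2 ratio of 1.54 and 1.67, or 1.61 ± 0.09 (SD, n = 2). The ratio within the HSP90 pair thus varied less between the libraries than that within the HSP70 group.

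Hsph1 (HSP110, an inducible exchange factor of HSP70) and its constitutive relative Hspa4 lay at about the same level. Hsph1 was listed at 80.4 and 41.8 TPM and Hspa4 at 70.4 and 50.3 TPM, so that the log2 ratio of Hspa4 over Hsph1 was -0.19 in replicate 1 and 0.27 in replicate 2. The order of these 2 genes thus differed between the libraries. Of the J-domain cofactors, Dnaja2 (53.0 and 45.01 TPM) exceeded the inducible Dnajb1 (11.1 and 6.73 TPM) by a log2 ratio of 2.50 ± 0.35 (SD, n = 2). Dnaja1, another J-domain partner of HSP70 and also on the inducible list, was higher than either, at 123 and 86.7 TPM. Dnajb4, on the same list, was at 14.7 and 11.1 TPM. Whether the constitutive or the inducible J-domain gene was the higher thus depended on the pair compared.

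**Figure D3:**
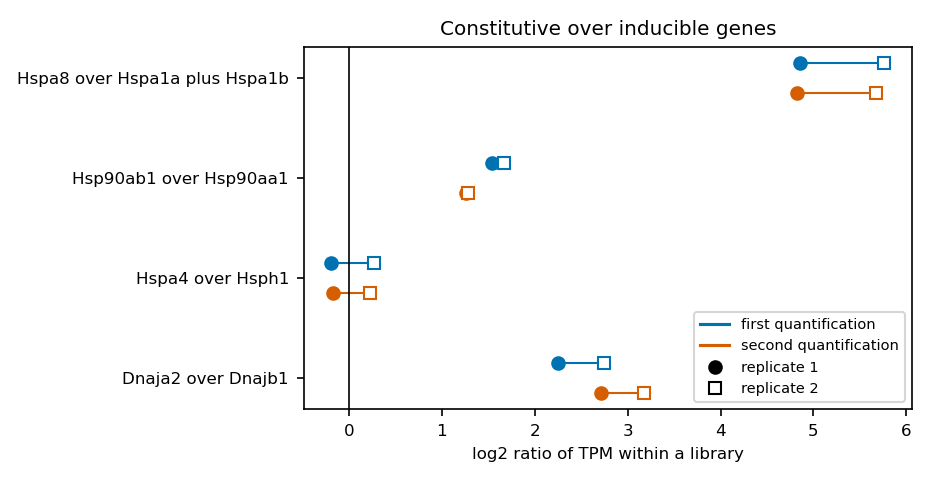
Log2 ratio of TPM of constitutive over inducible genes within each library (circles, replicate 1; squares, replicate 2) in the first (blue) and second (orange) quantification. Hspa8 stands between 4.82 and 5.76 above the sum of Hspa1a and Hspa1b, Hsp90ab1 between 1.26 and 1.67 above Hsp90aa1, and Hspa4 over Hsph1 crosses 0 in both quantifications.

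Among the remaining inducible genes, Bag3, an exchange factor that sends HSP70 clients to autophagy, was listed at 52.5 and 30.2 TPM. Hspb1 (HSP27), a small chaperone that holds unfolded proteins, was listed at 57.3 and 44.8 TPM. Both stood higher in replicate 1. The 3 muscle-type small heat shock genes were at similar levels in replicate 1, with Cryab (αB-crystallin) at 24.7 TPM, Hspb6 (HSP20) at 24.1 TPM and Hspb8 (HSP22, the partner of BAG3) at 33.5 TPM. In replicate 2 Cryab was at 10.1 and Hspb6 at 8.42 TPM, and Hspb8 at 31.5 TPM.

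ER members spanned a wide range. P4hb (protein disulfide isomerase, also a subunit of prolyl 4-hydroxylase) was listed at 149 and 332 TPM. Hsp90b1 (GRP94) was at 217 and 248 TPM, and Hspa5 (BiP, the ER HSP70) at 190 and 257 TPM. In each of these 3 genes replicate 2 was the higher. The lectin chaperones Calr (199 and 264 TPM) and Canx (146 and 138 TPM) hold glycoproteins for folding, together with the disulfide isomerase Pdia3 (112 and 131 TPM). Pdia6 was listed at 65.0 and 79.9 TPM and Pdia4 at 28.0 and 67.6 TPM, both disulfide isomerases.

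The ER cofactors were lower. The J-domain partners of BiP were Dnajb11 (22.2 and 33.4 TPM), Dnajc3 (19.5 and 28.3 TPM) and Dnajb9 (13.1 and 11.6 TPM). Hspa13, a divergent HSP70 of the microsomes, was listed at 13.0 and 13.3 TPM. None of the 4 reached the level of Pdia3 or Canx in either library.

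Mitochondrial members included 4 genes above 100 TPM in both libraries. Besides Hspd1 these were its co-chaperonin Hspe1 (HSP10) at 254 and 133 TPM, the mitochondrial HSP70 Hspa9 (mortalin) at 242 and 195 TPM, and the protease Lonp1, which degrades oxidised matrix proteins and the steroidogenic protein StAR, at 161 and 109 TPM. Trap1 (the mitochondrial HSP90) was listed at 66.8 and 61.3 TPM. The J-domain gene Dnaja3 was at 45.2 and 42.6 TPM, and the protease gene Clpp at 37.7 and 32.4 TPM. Hspd1 and Hspe1, which make the 2 parts of one folding cage, kept a log2 ratio of TPM of 0.89 in replicate 1 and 1.01 in replicate 2.

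The transcription factors were the lowest list in summed TPM after the muscle-type small heat shock genes. Xbp1 was listed at 46.8 and 56.1 TPM, Atf4 at 52.9 and 35.8 TPM, and Ddit3 (CHOP), a target of ATF4, at 20.1 and 13.8 TPM. Xbp1 was the higher in replicate 2 and the other 2 in replicate 1. Hsf1 was listed at 19.1 and 15.9 TPM, Atf6 at 11.1 and 10.6 TPM, and Hsf2 at 5.74 and 7.48 TPM. XBP1 is made active by IRE1, which cuts a short piece out of its mRNA. The annotation has 4 Xbp1 transcripts, and the shortest intron in any of them is 300 bases, so the cut form has no entry of its own and its share cannot be read from these values.

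By compartment, the 17 cytosolic chaperones and cofactors held 0.239% of all TPM in replicate 1 and 0.154% in replicate 2. The 12 ER genes held 0.117% and 0.160%, and the 7 mitochondrial genes 0.128% and 0.0842%. These 3 groups moved unequally. The log2 ratio of cytosolic over mitochondrial TPM was nearly the same in both libraries, at 0.91 and 0.87, a mean of 0.89 ± 0.02 (SD, n = 2). Cytosolic over ER went from 1.03 in replicate 1 to -0.06 in replicate 2, and ER over mitochondrial from -0.12 to 0.93. Ratios within a library do not depend on how libraries are scaled.

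Both libraries carried the adrenal programme together with RNA of other tissues, and they differed in which. All 8 steroidogenic markers (led by Hsd3b1 and Star) and all 6 chromaffin markers (led by Chgb and Chga) were detected. Summed, the steroidogenic markers reached 13078 and 7143 TPM, and the chromaffin markers 1824 and 1245 TPM. The 6 liver markers summed to 25.5 TPM in replicate 1 but 19029 TPM in replicate 2, where Alb stood at 11949 and Apoa2 at 2362 TPM. The 6 skeletal muscle markers summed to 1152 TPM in replicate 1 but 1.78 TPM in replicate 2, where Acta1 (426 TPM in replicate 1) and Mylpf were at 0.07 and 1.46 TPM. Adipocyte markers (led by Fabp4 and Cfd) summed to 2381 and 1697 TPM, erythroid markers (Hba-a1 and Hbb-bs) to 5709 and 3722 TPM, smooth muscle and vessel markers (Kdr and Tagln) to 90.8 and 67.5 TPM, and immediate early genes (Jun and Ier2) to 71.95 and 72.3 TPM. The near-equal sums of the immediate early genes do not mean that each gene was level. Log2 ratios of scaled counts in that list, replicate 2 over replicate 1, ran from -0.89 to 1.11. In bulk tissue, fewer cells of a type and less RNA per cell cannot be told apart.

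To see which members differ between the libraries, each gene's expected counts were put to a two-sided exact binomial test with TMM-scaled library sizes, over 19801 genes with at least 10 counts in total. A gene passed at an adjusted p below 0.05 and was called different if it also differed at least 2-fold. With 1 library on each side the test covers counting error and compares these libraries, not conditions. Log2 ratios below are replicate 2 over replicate 1, with 95% counting intervals. Of the 42 members 17 passed as higher in replicate 2, 19 passed as lower and 6 did not pass. Over all genes tested, 20.7% passed as higher and 18.4% as lower. Of the members 2 were called higher and 4 called lower at 2-fold, beside 8.56% and 2.29% of all genes tested. Passing at any fold depends on depth, because a gene with more counts passes at a smaller ratio. Each member had at least 245 counts in each library, whereas genes tested needed only 10 in total. The members were not compared with genes of like counts, so these shares do not show that the set differs more than other genes. The median log2 ratio of the members was -0.107, and that of all genes tested -0.007. The choice of scaling matters to these signs. The median of all genes tested was -0.239 with library sizes from total counts and -0.365 with those from spike-ins. Of the 19801 genes tested, 2515 passed as higher and 8524 as lower by total counts, and 2138 and 10558 by spike-ins. Pass counts of the lists under those scalings, given below, are to be read beside these.

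**Figure D4:**
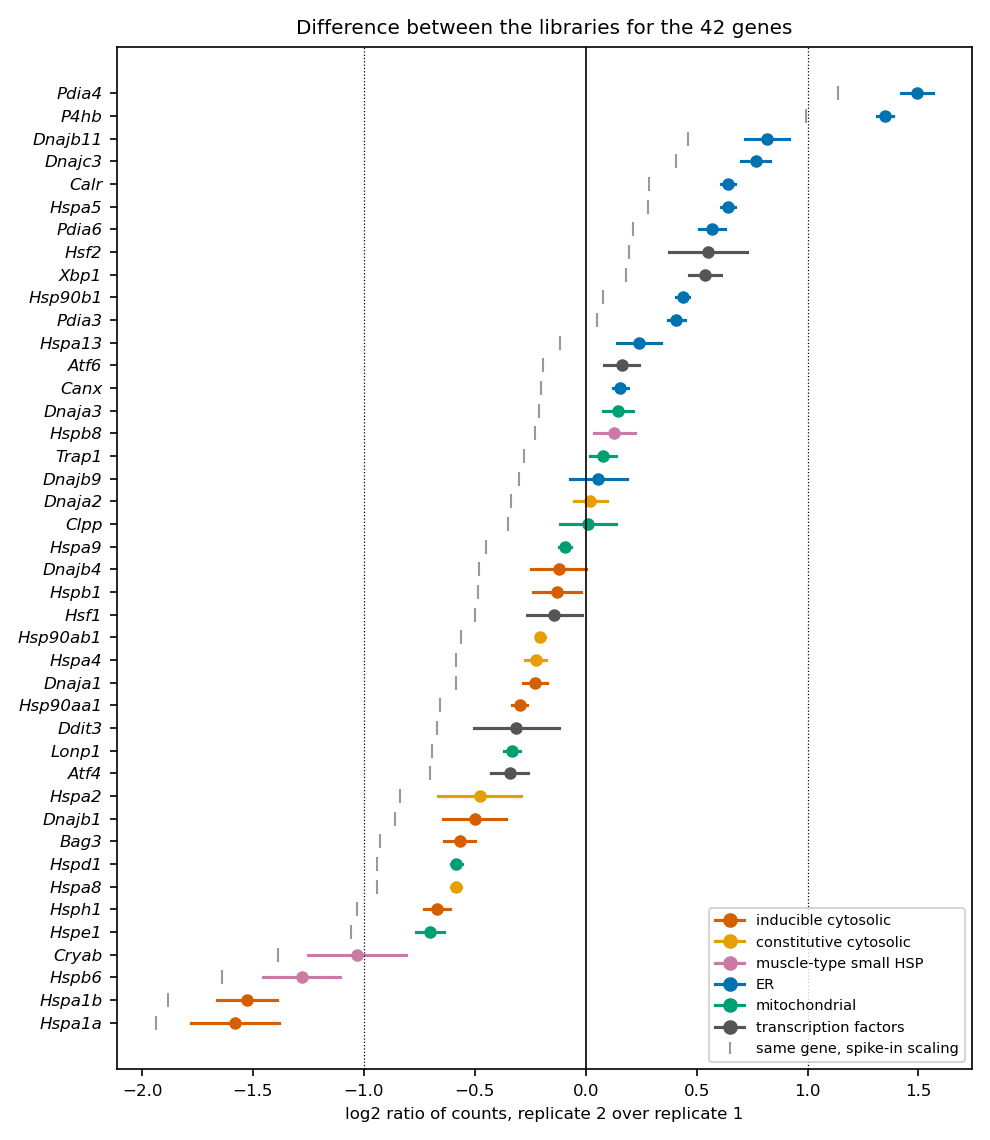
Log2 ratio of counts, replicate 2 over replicate 1, for each member with TMM scaling (points) and its 95% counting interval (bars), coloured by list, with the value under spike-in scaling as a grey tick and dotted lines at 2-fold. Pdia4 (1.49) and P4hb (1.35) lie at the top, Hspa1a (-1.58) and Hspa1b (-1.53) at the bottom, and ER genes fill most of the upper part.

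Among inducible cytosolic genes 7 of 9 were lower in replicate 2 and 2 did not pass, with a median log2 ratio of -0.50 (-0.73 by total counts and -0.86 by spike-ins). Hspa1a had a log2 ratio of -1.58 (-1.78 to -1.38) and Hspa1b one of -1.53 (-1.66 to -1.39), and both were called lower. Hsph1 stood at -0.67 (-0.73 to -0.61), Bag3 at -0.57 and Dnajb1 at -0.50. Hsp90aa1 (-0.30) and Dnaja1 (-0.23) passed at smaller ratios, whereas Dnajb4 (-0.12, adjusted p = 0.118, exact binomial test) and Hspb1 (-0.13, adjusted p = 0.0509, exact binomial test) did not pass. Both passed as lower by total counts and by spike-ins, and Hspb1 also in the second quantification. All 9 ratios were below 0 under TMM, total-count and spike-in scaling.

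Of the 5 constitutive cytosolic genes 4 were lower in replicate 2. Hspa8 had the lowest log2 ratio, -0.58 (-0.61 to -0.56), followed by Hspa2 at -0.48 (-0.66 to -0.29), Hspa4 at -0.23 and Hsp90ab1 at -0.20. Dnaja2 did not pass, at 0.02 (-0.05 to 0.10), and was below 0 under both other scalings. The steroidogenic markers, for comparison, had a median log2 ratio of -0.66 and all 8 passed as lower, and the part of this in the chaperone values was not tested.

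Of the 3 muscle-type small heat shock genes 2 were called lower in replicate 2, which are Hspb6 at a log2 ratio of -1.28 (-1.46 to -1.11) and Cryab at -1.03 (-1.25 to -0.81). Hspb8 passed as higher at 0.13 (0.04 to 0.22) under TMM but stood at -0.10 by total counts and -0.23 by spike-ins. Skeletal muscle markers moved with Cryab and Hspb6, with all 6 lower in replicate 2 and a summed level of 1152 against 1.78 TPM, and in replicate 2 the Cryab and Hspb6 levels of 10.1 and 8.42 TPM stood where Acta1 was at 0.07 TPM. The part of muscle RNA in the difference was not tested. Hspb6 shares 122 exon bases with the antisense gene Proser3, and Cryab 252 with Hspb2, which was listed at 1.38 and 0.46 TPM.

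The ER chaperones were mostly higher in replicate 2. Of the 12 genes 11 passed as higher, 0 as lower and 1 did not pass, with a median log2 ratio of 0.61 under TMM, 0.37 by total counts and 0.25 by spike-ins. By total counts 9 passed as higher and 2 as lower, and by spike-ins 9 as higher and 3 as lower. Pdia4 (chr6:47796141-47813430, minus strand) had the highest ratio, 1.49 (1.42 to 1.57), and P4hb (chr11:120560298-120573253, minus strand) the next, 1.35 (1.31 to 1.39), and both were called higher. With spike-in scaling P4hb stood at 0.99, just under 2-fold.

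The BiP cofactors Dnajb11 and Dnajc3 followed at log2 ratios of 0.82 (0.72 to 0.92) and 0.77 (0.70 to 0.83). Hspa5 and Calr both stood at 0.64, Pdia6 at 0.57, Hsp90b1 at 0.44 and Pdia3 at 0.41. These 9 genes, Pdia4 and P4hb included, were above 0 under all 3 scalings. Canx, at 0.16 under TMM, was at -0.08 by total counts and -0.20 by spike-ins, and Hspa13, at 0.24, stood at -0.12 by spike-ins. Dnajb9 did not pass, at 0.06 (-0.07 to 0.19; adjusted p = 0.57, exact binomial test).

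Under TMM, 11 of the 12 ER genes lay above the highest cytosolic member (Hspb8, 0.13) and above the highest mitochondrial member (Dnaja3, 0.15). Of the 6 genes with an ER stress element, the log2 ratios were 0.77 (Dnajc3), 0.64 (Hspa5), 0.64 (Calr), 0.57 (Pdia6), 0.44 (Hsp90b1) and 0.16 (Canx). Dnajb11, with the related element, stood at 0.82. The other ER genes showed no match, and stood at 1.49 (Pdia4), 1.35 (P4hb), 0.41 (Pdia3), 0.24 (Hspa13) and 0.06 (Dnajb9). Only 11 of the 12 ER genes had a RefSeq promoter, so not all of these were searched. Whether the ratio goes with the element was not tested. Liver markers moved with this list, with all 6 higher in replicate 2 and a summed level of 25.5 against 19029 TPM. The part of liver RNA in the ER difference was not tested.

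Of the 7 mitochondrial members 2 passed as higher, 4 as lower and 1 did not pass under TMM. By total counts and by spike-ins all 7 passed as lower, as did 8524 and 10558 of the 19801 genes tested. The list's median log2 ratio was -0.09 under TMM, -0.32 by total counts and -0.45 by spike-ins, so the direction of its smaller ratios rests on the scaling. Hspe1 had a log2 ratio of -0.70 (-0.77 to -0.64), Hspd1 one of -0.58 (-0.61 to -0.56), Lonp1 one of -0.33 and Hspa9 one of -0.09, and these 4 passed as lower. Dnaja3 (0.15) and Trap1 (0.08) passed as higher under TMM but were below 0 by total counts and by spike-ins, and Clpp did not pass, at 0.01 (adjusted p = 0.98, exact binomial test). The 2 genes of the HSP60/HSP10 cage, which overlap by 112 exon bases on opposite strands, had the 2 lowest ratios of the list. Whether counting used strand is not given in the sources used here, so reads of that overlap cannot be told apart.

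Of the transcription factors, Hsf2 (0.55, 0.38 to 0.73) and Xbp1 (0.54, 0.46 to 0.61) were higher in replicate 2 under all 3 scalings. Atf6 passed as higher at 0.16 under TMM but was at -0.07 by total counts and -0.19 by spike-ins. Atf4 (-0.34) and Ddit3 (-0.31) passed as lower. Hsf1 did not pass, at -0.14 (adjusted p = 0.0632, exact binomial test), but passed as lower by total counts, by spike-ins and in the second quantification. Ddit3 did not pass in the second quantification. Ddit3 shares 68 exon bases with the antisense gene Mars, listed at 33.8 and 27.0 TPM.

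Other genes of the same pathways were taken from lists that hold none of the members. Like the members, these lists were chosen with earlier results of these data known, so they are not independent support for the member values. In the list of 16 ER folding and ER-associated degradation genes, 14 passed as higher, 1 as lower (Ero1l, an oxidase of disulfide isomerases, -0.20) and 1 did not pass, with a median of 0.58. By total counts 12 passed as higher and 2 as lower, and by spike-ins 11 and 4. Under TMM 6 were called higher, which are Derl3 (2.38, at 0.72 and 2.07 TPM), Creld2 (1.39), Edem1 (1.22), Sdf2l1 (1.21), Ero1lb (1.19) and Pdia5 (1.04). The most abundant were Manf, an ER stress-induced secreted factor (80.1 and 105 TPM, log2 ratio 0.61), Hyou1, an ER exchange factor of the HSP110 family (56.9 and 72.6 TPM, 0.59), and Sel1l, of the degradation ligase (54.6 and 52.0 TPM, 0.19 under TMM and -0.17 by spike-ins).

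In the list of 10 unfolded protein response sensors and targets 0 passed as higher, 3 passed as lower and 7 did not pass under TMM, with a median of -0.14. By total counts 7 passed as lower, and by spike-ins 9, with medians of -0.37 and -0.50. The most abundant were Ern1 (IRE1α), at 40.7 and 31.3 TPM with a log2 ratio of -0.12, the protease Mbtps1, which cuts ATF6, at 34.8 and 29.8 TPM (-0.06), and Creb3l2, at 25.6 and 19.3 TPM (-0.23). The third gene to pass as lower was Asns, a target of ATF4 that makes asparagine, at -0.57, and it was named after its value was seen.

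For the cytosolic partners, of 16 cochaperones of HSP70 and HSP90, 1 passed as higher, 7 as lower and 8 did not pass under TMM, with a median of -0.07 and 0 called at 2-fold. By total counts and by spike-ins 15 passed as lower and 0 as higher, with medians of -0.30 and -0.43. Over all 19801 genes tested, 8524 and 10558 passed as lower under these scalings. The most abundant were St13 (HIP, 91.0 and 76.2 TPM, log2 ratio -0.02), Dnajc7 (92.0 and 67.9 TPM, -0.29) and Fkbp4, an immunophilin of steroid receptor complexes (84.7 and 73.6 TPM, 0.01). The gene that passed as higher was Fkbp5, a glucocorticoid-responsive immunophilin, at 0.30 under TMM and -0.06 by spike-ins, and it too was named after its value was seen. Of the 8 subunits of TRiC, the chaperonin that folds actin and tubulin, 6 passed as lower and 2 did not pass under TMM, with a median of -0.15, and all 8 passed as lower by total counts and by spike-ins. The most abundant were Cct3 (113 and 84.3 TPM, -0.16), Cct5 (108 and 82.1 TPM, -0.16) and Cct7 (88.9 and 68.5 TPM, -0.15).

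In the list of 8 mitochondrial quality control genes 3 passed as higher, 0 as lower and 5 did not pass under TMM, with a median of 0.02. By total counts and by spike-ins 2 passed as higher and 6 as lower, with medians of -0.21 and -0.33. Atf5, a transcription factor of the mitochondrial stress response, was called higher at 1.16 (41.9 and 79.9 TPM), and Clpx, the unfoldase that feeds CLPP, at 1.09 (29.3 and 52.3 TPM). Its partner Clpp stood at 0.01 in the same comparison. The third most abundant gene was the inner-membrane protease Yme1l1, at 38.9 and 34.9 TPM, which did not pass at 0.07. Liver and skeletal muscle markers differ between the same libraries as given above, and their part in the values of these lists was not tested.

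**Figure D5:**
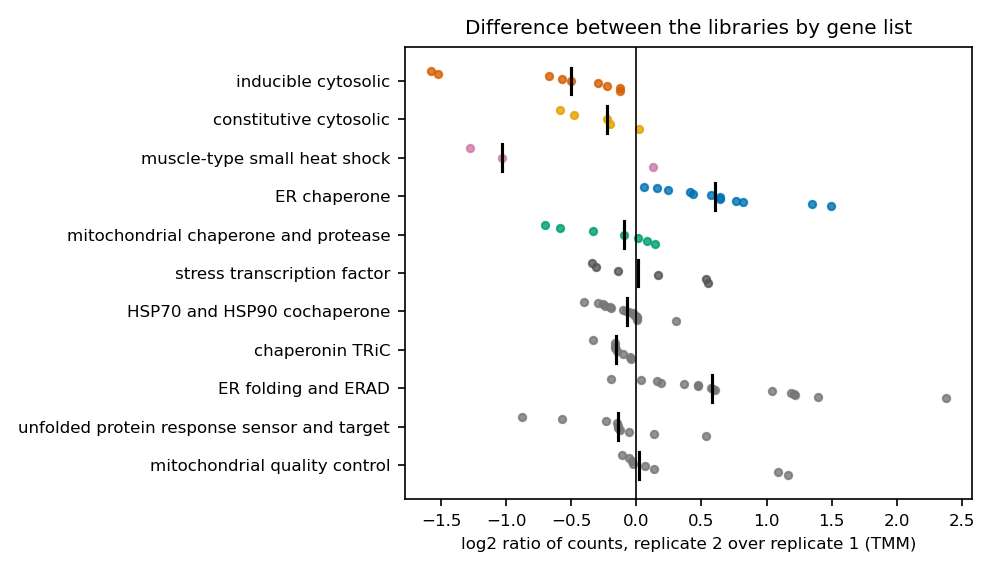
Log2 ratio of counts, replicate 2 over replicate 1 (TMM), for each gene of the 6 member lists (coloured) and of 5 further pathway lists (grey), with the list's median as a black bar. ER chaperones (median 0.61) and ER folding and degradation genes (0.58) lie to the right, inducible cytosolic genes (-0.50) and muscle-type small heat shock genes (-1.03) to the left.

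The annotated transcript that carried each gene was also read. In 22 of 42 members the leading transcript held at least 90% of the gene's TPM in both libraries, and in 41 it was protein coding. The exception was Dnaja1, whose leading entry, Dnaja1-206, is a non-coding processed transcript of 571 bases with 34.5% and 38.7% of the gene's TPM. Dnaja1 shares 608 exon bases with the antisense gene Smu1 (19.1 and 17.6 TPM). A coding lead does not make all of a gene's TPM coding. In the first quantification coding transcripts held 52.8% and 54.2% of TPM for Dnaja2 and 66.6% and 66.8% for P4hb. They held 74.2% and 77.3% for Hspa8, but 100% in both libraries for others such as Bag3.

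The second quantification gave the same leading transcript in 34 of the 42 members. Its leading entry for Hsph1 and Dnaja2 was a retained-intron transcript, with 60.5% and 59.6% of TPM for Dnaja2, and for Hspb6 a processed transcript with 55.4% and 71.9%. For Hspb6 the first quantification had placed 87.7% and 79.0% of TPM on its coding transcript Hspb6-201. The transcript shares of these members thus depend on the quantification.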

How the data were processed

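Adrenal total RNA of 2 libraries was analysed; replicate 1 held 35283841 expected counts and replicate 2 held 35156690. Per the file headers, the authors deposited a first quantification per gene and transcript (expected counts, TPM, posterior SD of the count, and percent of gene TPM per transcript) and a second per transcript (estimated counts, TPM), summed here by gene. Tables use mm10 with annotation M21; aligner and quantifier names were not given in the sources used here. TPM counts spike-ins and short RNAs in its total. ERCC spike-ins (0.839% and 0.915% of counts), phiX (0) and entries with numbers for names (8 and 6.73 counts) stayed out of tests.

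Levels are TPM, with mean ± SD of 2 libraries. Counts were rounded and tested by a two-sided exact binomial test against library sizes scaled by TMM (edgeR 4.0.16, factors 1.08 and 0.923). Benjamini-Hochberg adjustment was over 19801 genes. The code of the test was checked on simulated Poisson counts with library sizes from total counts. That check covers neither TMM scaling nor spread between libraries beyond counting error. Intervals cover counting error only. Alternatives were total-count, spike-in and DESeq2 1.42.0 scaling, other filters and fold minimums, and the second quantification. All 42 members are named, with the 3 most abundant genes and all called genes of each pathway list and the 2 most abundant of each marker list. Asns, Fkbp5, Ero1l and antisense neighbours were named after their values were seen. Members and lists were chosen with earlier results of these data known. Promoters are from RefSeq (GRCm38.p6); protein sequences were not used here.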

Additional observations from a re-analysis of the deposited data

How the results depend on the processing

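No paired analysis was possible because there is 1 group of libraries. With 1 library on each side the comparison has no residual degrees of freedom. Detection of all 42 members held under each alternative except a minimum of 5 TPM, which left 40. Shares of TPM depend on what they are taken over: by the second quantification, and over protein-coding genes of the nucleus, they were 0.100% and 0.147% for inducible cytosolic (main 0.0495%), 0.225% and 0.416% for constitutive (0.140%), 0.0117% and 0.0196% for small heat shock (0.00661%), 0.241% and 0.405% for ER (0.139%), 0.181% and 0.314% for mitochondrial (0.106%), and 0.0250% and 0.0434% for transcription factor genes (0.0148%). Leaving out either library, they spanned 0.0388% to 0.0602%, 0.110% to 0.171%, 0.0050% to 0.0082%, 0.117% to 0.160%, 0.0842% to 0.128% and 0.0140% to 0.0156%. On expected counts, not divided by length, log2 ratios were 4.59 for Hspa8 over Hspa1a plus Hspa1b, 1.78 for Hsp90ab1 over Hsp90aa1, 0.52 for Hspa4 over Hsph1 and 1.73 for Dnaja2 over Dnajb1, and by the second quantification 1.27 for the HSP90 pair and 2.95 for Dnaja2 over Dnajb1. Leaving out either library these ratios spanned 4.85 to 5.76, 1.54 to 1.67, -0.19 to 0.27 and 2.25 to 2.74, so Hspa4 over Hsph1 had no fixed sign. Over all genes, 1695 were called higher and 454 lower, against 1451 and 727 by total counts and 1356 and 1003 by spike-ins. With no fold minimum the counts were 4097 and 3641, at 1.5-fold 2228 and 817, and at a minimum of 50 counts 1343 and 291. Members called higher numbered 1 by spike-ins, 6 at 1.5-fold and 17 with no minimum (main 2). Those called lower numbered 6 by spike-ins, 6 at 1.5-fold and 19 with no minimum (main 4). Members that passed as higher at any fold fell from 17 to 11 by total counts and 11 by spike-ins. Those that passed as lower rose from 19 to 28 and 31. Over all genes tested, those that passed as higher fell from 4097 to 2515 and 2138, and those that passed as lower rose from 3641 to 8524 and 10558. Log2 ratios that changed sign by total counts and by spike-ins were Dnaja2 (-0.21 and -0.34), Hspb8 (-0.10 and -0.23), Dnajb9 (-0.18 and -0.30), Canx (-0.076 and -0.20), Trap1 (-0.15 and -0.28), Dnaja3 (-0.086 and -0.21), Clpp (-0.22 and -0.35) and Atf6 (-0.069 and -0.19), with Hspa13 (-0.12) by spike-ins alone. By the second quantification Dnaja2 (-0.01) and Clpp (-0.041) changed sign. There Hspb8 (adjusted p = 0.129), Trap1 (0.0755) and Ddit3 (0.0749) no longer passed the exact binomial test, whereas Hspb1 (0.0483) and Hsf1 (0.00395) did. Hspb1 also passed with DESeq2 scaling (0.0392) and a minimum of 50 counts (0.0439), and Hspb1, Hsf1 and Dnajb4 by total counts and by spike-ins. Hspa13 did not pass by total counts (0.935). DESeq2 scaling changed no sign. The fewest counts behind any member value were 245, for Cryab in replicate 2.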
